A study of Mus musculus with 90 samples.

Results

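The genes described here are those of the multiciliated cells that line the conducting airways. A list of 38 genes was drawn up, from regulators of multiciliated cell formation to the structural parts of the motile cilium. A gene was taken where the array annotation gave a probe set to its symbol alone, and of several such probe sets the brightest one was used. This left 33 of the 38 genes, among 17097 genes tested. Tekt4, Mcidas, Meig1, Dynlrb2 and Sntn had no such probe set and were left out.

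Whole lungs of 90 adult male mice were profiled, with 1 array per animal and 5 animals in each of 18 groups. KO mice lacked both copies of Cyp2f2, which encodes a cytochrome P450 of club cells, the secretory cells of the airway. TG mice lacked Cyp2f2 too and carried human transgenes that the labels write as 2F1, SA13 and 2B6, without naming the promoter that drives them. WT mice were wild type, and all 3 strains had the C57BL/6 background. Each strain inhaled air alone (0 ppm) or 40 or 120 ppm styrene in daily sessions on weekdays for 1 or 4 weeks, and was killed the following morning. The comparisons ask what styrene does to these genes in each strain, and whether that depends on Cyp2f2.

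Multiciliated cells beat their cilia together to move mucus and trapped particles out of the lung. A cell that takes this fate first builds many centrioles, which dock at its surface as basal bodies and each grow a cilium. The transcription factors FOXJ1 and RFX then switch on the genes of the axoneme, the microtubule core of the cilium, whose dynein arms, radial spokes and central pair generate and regulate the beat.

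The promoters of 3 genes that the results turn on are shown here with the matches to GTTGCC, the core motif of RFX factors, in capitals (GGCAAC where the match is on the other strand). Each runs from 250 bases before the RefSeq start to 50 bases after it and is written 5′ to 3′ on the strand of the gene, in GRCm38.p6. Ccno lies on the plus strand at chr13:112987552-112987851, Lrrc23 on the minus strand at chr6:124779678-124779977, and Zmynd10 on the plus strand at chr9:107547054-107547353.
Ccno: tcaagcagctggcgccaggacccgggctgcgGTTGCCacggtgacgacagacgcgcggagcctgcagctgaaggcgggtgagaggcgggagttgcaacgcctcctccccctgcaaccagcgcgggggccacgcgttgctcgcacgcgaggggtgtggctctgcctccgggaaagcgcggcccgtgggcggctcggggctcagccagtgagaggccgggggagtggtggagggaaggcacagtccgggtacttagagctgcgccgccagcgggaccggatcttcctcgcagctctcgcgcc
Lrrc23: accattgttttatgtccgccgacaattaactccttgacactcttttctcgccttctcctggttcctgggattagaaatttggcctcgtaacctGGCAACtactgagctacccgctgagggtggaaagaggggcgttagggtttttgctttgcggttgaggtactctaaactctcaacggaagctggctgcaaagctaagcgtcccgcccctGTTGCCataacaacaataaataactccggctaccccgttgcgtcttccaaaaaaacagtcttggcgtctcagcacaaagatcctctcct
Zmynd10: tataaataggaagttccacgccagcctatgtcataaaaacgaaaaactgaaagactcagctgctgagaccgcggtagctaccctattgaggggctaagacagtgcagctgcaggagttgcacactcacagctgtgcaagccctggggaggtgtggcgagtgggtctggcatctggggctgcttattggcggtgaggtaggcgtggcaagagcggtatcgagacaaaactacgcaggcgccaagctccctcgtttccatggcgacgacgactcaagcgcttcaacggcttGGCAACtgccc
Ccno and Zmynd10 held 1 match each and Lrrc23 held 2. These 3 are shown because they match, and the promoters of Rsph9 and Ccdc40, the other two genes that rose with styrene, held 0 matches each. RefSeq entries were found for 29 of the 33 genes, with none for Foxj1, Rsph1, Rsph4a and Tppp3. GTTGCC, searched on both strands, occurred in 16 of these 29 promoters (55.2%) and in 12.9% of the 13605 promoters of tested genes. TGTTTAC, a forkhead motif of the kind FOXJ1 binds, occurred in 4 of 29 (13.8%), against 2.82% of all. An inverted pair of cores, GTTNCC and GGNAAC set 0 to 3 bases apart, occurred in 0 of 29 and in 0.911% of all. A match describes the letters in this window and is not a binding site.

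Most of the genes were read well in these lungs. Values are deposited log2 expression values, on which 1 unit is a factor of 2, and levels are not compared between genes because probe sets differ in brightness. Of the defining markers, Tppp3 averaged 11.42 over the 90 arrays, Ccdc153 10.13, Rsph1 8.36, Foxj1 8.09, Tekt1 7.20 and Dnah5 6.46, where the array medians ran from 4.42 to 4.86. Only Stoml3, which encodes a stomatin family protein, had a mean (2.88) below the lowest array median. Iqub (4.48) and Spag17 (4.51) lay within the range of the array medians. The Cyp2f2 probe set read 11.86 ± 0.16 in unexposed KO lungs, 11.88 ± 0.14 in unexposed TG lungs and 13.27 ± 0.05 in unexposed WT lungs (SD, n = 10 each). WT lungs separated from KO and TG lungs as labelled, while KO and TG lungs read alike and are not told apart by this probe set. The KO and TG signal stayed far above the array medians, and the position of the probe set relative to the deletion was not known.

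Across 396 exposure changes (33 genes in 12 exposed groups, each against its own strain and week at 0 ppm), 8 passed the test, an adjusted p under 0.05 in limma over all 17097 genes. All 8 were rises in WT lungs after 1 week, where 3.82% of all genes rose at 40 ppm and 3.94% at 120 ppm. Both doses there share the same controls. Exposure for 1 week raised the centriole-building cyclin gene Ccno, the radial spoke gene Lrrc23 and the dynein assembly factor gene Zmynd10 at both doses, and at 40 ppm also the spoke gene Rsph9 and the axoneme gene Ccdc40. None of the 33 genes passed at 4 weeks in WT lungs, or in KO and TG lungs at either week. In whole lung, fewer or more ciliated cells and less or more RNA per cell cannot be told apart.

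**Figure D1:**
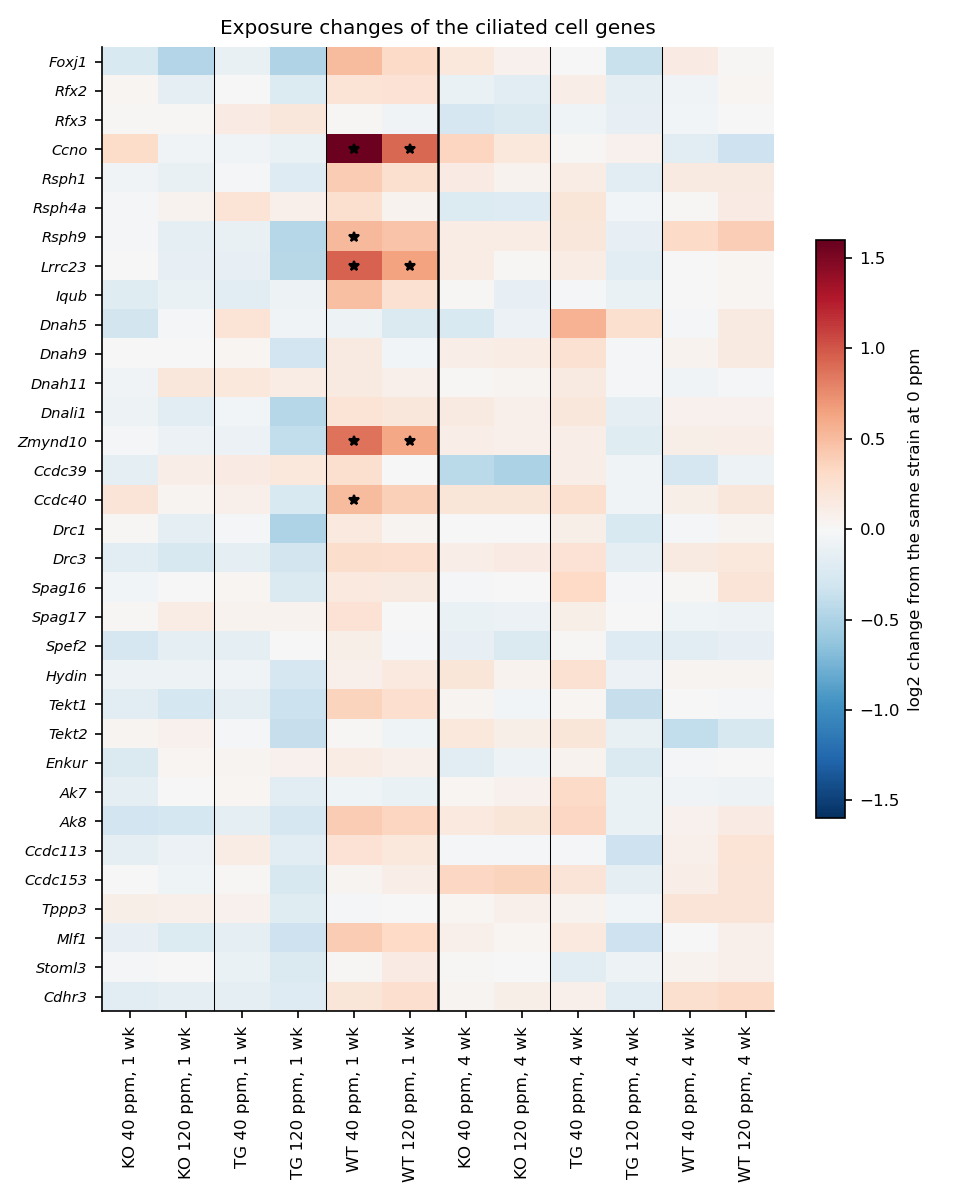
Log2 change of each of the 33 genes (rows, by role) in each of 12 exposed groups (columns) from the same strain and week at 0 ppm. Stars mark the 8 changes with an adjusted p under 0.05, which lie in the 2 columns of WT lungs after 1 week.

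Among the regulators, Ccno showed the largest change of the 33 genes. It encodes cyclin O, needed for the mass production of centrioles in multiciliated cells. In WT lungs after 1 week, Ccno read 5.33, 5.04, 5.72, 5.69 and 5.70 at 0 ppm, 6.92, 6.99, 7.56, 7.01 and 6.84 at 40 ppm, and 6.63, 6.95, 5.45, 6.67 and 6.41 at 120 ppm. All 5 lungs at 40 ppm and 4 of 5 at 120 ppm lay above every control. The log2 change was 1.57 at 40 ppm (SE 0.19, 2.96-fold, limma adjusted p = 2.77e-09) and 0.92 at 120 ppm (SE 0.19, 1.90-fold, limma adjusted p = 0.000336). The exception at 120 ppm was animal 3, whose array had a low weight in a fit that weights arrays by their noise (0.135). Without the 4 arrays of low weight, the change at 120 ppm was 1.17.

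Foxj1, the factor that drives motile cilia genes, did not pass. It read 7.89, 7.97, 8.41, 8.40 and 8.05 at 0 ppm, 8.53, 8.61, 8.94, 8.79 and 8.38 at 40 ppm, and 8.57, 8.38, 8.67, 8.66 and 7.98 at 120 ppm. The groups overlapped, with 4 of 5 lungs at 40 ppm above every control. The log2 change was 0.51 (95% interval 0.08 to 0.94, limma adjusted p = 0.197) at 40 ppm and 0.31 (interval -0.12 to 0.74, limma adjusted p = 0.460) at 120 ppm. The RFX factor genes changed by 0.22 (Rfx2) and 0.01 (Rfx3) at 40 ppm, neither of which passed.

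In the radial spokes, which pass signals from the central pair to the dynein arms, 2 of 5 genes rose at 40 ppm and 1 of 5 at 120 ppm. Of all genes, 3.82% and 3.94% rose at these doses, and 5 genes are too few to set the spokes apart. Lrrc23, a spoke component, read 8.11, 7.83, 8.18, 8.57 and 8.18 at 0 ppm, 9.11, 9.09, 9.05, 9.41 and 8.94 at 40 ppm, and 8.75, 8.77, 8.85, 9.39 and 8.35 at 120 ppm. Every lung at 40 ppm and 4 of 5 at 120 ppm lay above all controls. The changes were 0.94 (SE 0.15, limma adjusted p = 5.76e-06) and 0.65 (SE 0.15, limma adjusted p = 0.00254).

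Rsph9, a part of the spoke head, read 8.11, 7.70, 8.11, 8.15 and 8.11 at 0 ppm, 8.49, 8.64, 8.54, 8.69 and 8.38 at 40 ppm, and 8.58, 8.69, 8.37, 8.73 and 8.11 at 120 ppm. Again no lung at 40 ppm overlapped the controls, and 1 at 120 ppm did. The changes were 0.51 (SE 0.15, limma adjusted p = 0.0332) and 0.46 (SE 0.15, limma adjusted p = 0.0529), so the second did not pass. Rsph1, another spoke head gene, read 8.16, 8.02, 8.34, 8.78 and 8.36 at 0 ppm, 8.65, 8.48, 8.81, 8.99 and 8.75 at 40 ppm, and 8.76, 8.22, 8.79, 8.98 and 8.17 at 120 ppm. Its groups overlapped, with changes of 0.40 and 0.25 that did not pass. Iqub, a further spoke gene with a mean near the array medians, changed by 0.49 at 40 ppm (limma adjusted p = 0.165).

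Of the 5 genes of the dynein arms and their assembly, only Zmynd10 passed. ZMYND10 works in the cytoplasm, where dynein arms are put together before transport into the cilium. Zmynd10 read 6.95, 6.71, 7.08, 7.39 and 7.04 at 0 ppm, 7.82, 7.90, 7.99, 8.14 and 7.62 at 40 ppm, and 7.64, 7.91, 7.28, 8.13 and 7.33 at 120 ppm. All lungs at 40 ppm and 3 of 5 at 120 ppm lay above all controls. The changes were 0.86 (SE 0.17, limma adjusted p = 0.000286) and 0.62 (SE 0.17, limma adjusted p = 0.0127), and the second was lost without WT control animal 2 (limma adjusted p = 0.0749) or without animal 4 at 120 ppm (limma adjusted p = 0.0577).

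The dynein chain genes did not pass. Dnah5, Dnah9 and Dnah11, heavy chains of the outer arm, changed by -0.08, 0.14 and 0.14 at 40 ppm, with a 95% interval for Dnah5 from -0.70 to 0.53. Dnali1, an inner arm light intermediate chain, read 7.42, 7.11, 7.60, 8.07 and 7.76 at 0 ppm, 7.64, 7.79, 7.95, 8.05 and 7.63 at 40 ppm, and 7.81, 7.65, 7.83, 8.13 and 7.42 at 120 ppm, and the groups overlapped. Its second probe set changed by 0.52 at 40 ppm where the brighter one changed by 0.22.

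CCDC40 pairs with CCDC39 to form the ruler that sets the spacing of spokes and inner arms along the axoneme. Ccdc40 read 6.36, 6.00, 6.43, 6.57 and 6.38 at 0 ppm, 6.78, 6.62, 6.92, 7.06 and 6.92 at 40 ppm, and 6.88, 6.65, 6.86, 7.06 and 6.18 at 120 ppm. The lungs at 40 ppm lay above all controls, by a small margin for animal 2. The changes were 0.51 (SE 0.15, limma adjusted p = 0.0320) and 0.38 (limma adjusted p = 0.131), and only the first passed. Ccdc39 changed by 0.26 and 0.01 and did not pass.

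Of the nexin-dynein complex, the central pair, the tektins and microtubule inner proteins, the adenylate kinases and the other ciliated cell genes, none passed. Drc3, of the nexin-dynein regulatory complex that links neighbouring microtubule doublets, read 7.86, 7.74, 7.88, 8.21 and 7.90 at 0 ppm, 8.04, 8.13, 8.28, 8.51 and 8.03 at 40 ppm, and 8.19, 7.90, 8.30, 8.72 and 7.82 at 120 ppm, with overlap and changes of 0.28 and 0.27. Spag16, of the central pair, read 5.29, 5.67, 5.87, 6.36 and 5.59 at 0 ppm, 5.78, 5.65, 5.76, 6.42 and 5.93 at 40 ppm, and 6.13, 5.41, 6.17, 6.28 and 5.51 at 120 ppm. Exposed and control lungs overlapped for both genes. Enkur, a protein inside the doublet microtubules, read 6.89, 7.54, 7.39, 7.88 and 7.07 at 0 ppm, 7.45, 7.13, 7.31, 7.68 and 7.77 at 40 ppm, and 7.53, 6.70, 8.16, 7.85 and 6.96 at 120 ppm.

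Ak7, an adenylate kinase of the axoneme, read 8.21, 8.59, 8.46, 9.03 and 8.44 at 0 ppm, 8.35, 8.27, 8.42, 8.77 and 8.57 at 40 ppm, and 8.56, 7.72, 9.06, 8.82 and 8.01 at 120 ppm. Tppp3, a tubulin polymerisation-promoting protein, read 11.56, 11.22, 11.50, 11.47 and 11.21 at 0 ppm, 11.33, 11.50, 11.32, 11.37 and 11.32 at 40 ppm, and 11.36, 11.41, 11.51, 11.48 and 11.22 at 120 ppm. Neither gene separated the groups, and the changes of Tppp3 were -0.03 (95% interval -0.23 to 0.18) and 0.00 (interval -0.20 to 0.21). Ccdc153, the other of the 2 brightest genes, changed by 0.05 and 0.10.

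Set against the array as a whole, 5 of 33 genes rose at 40 ppm and 3 of 33 at 120 ppm, where 3.82% and 3.94% of all genes rose, and 4.67% and 6.79% passed in either direction. The exposed lungs all lay above all controls for 5 of 33 genes at 40 ppm (5.66% of all genes) and for 0 of 33 at 120 ppm (1.33% of all genes). The change was above 0 for 30 of 33 genes at 40 ppm (57.2% of all genes), with a median of 0.22 against 0.03 over all genes. At 120 ppm it was above 0 for 26 of 33 (50.5% of all genes), with a median of 0.16 against 0.00. The 33 genes moved together from animal to animal, so their signs are not independent. Both doses were set against the same 5 controls. The 33 genes were chosen with earlier results of these data known, so the counts beside the shares of all genes are descriptions and not a test. With its sign kept, the change at 40 ppm was higher than that at 120 ppm for 27 of 33 genes (64.0% of all genes). This also counts genes with negative changes, such as Dnah5 (-0.08 at 40 ppm and -0.23 at 120 ppm). In the direct comparison of 120 with 40 ppm at 1 week, 0 of 33 passed (0% of all genes). Ccno differed there by -0.64 (limma unadjusted p = 0.000885, limma adjusted p = 0.777).

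**Figure D2:**
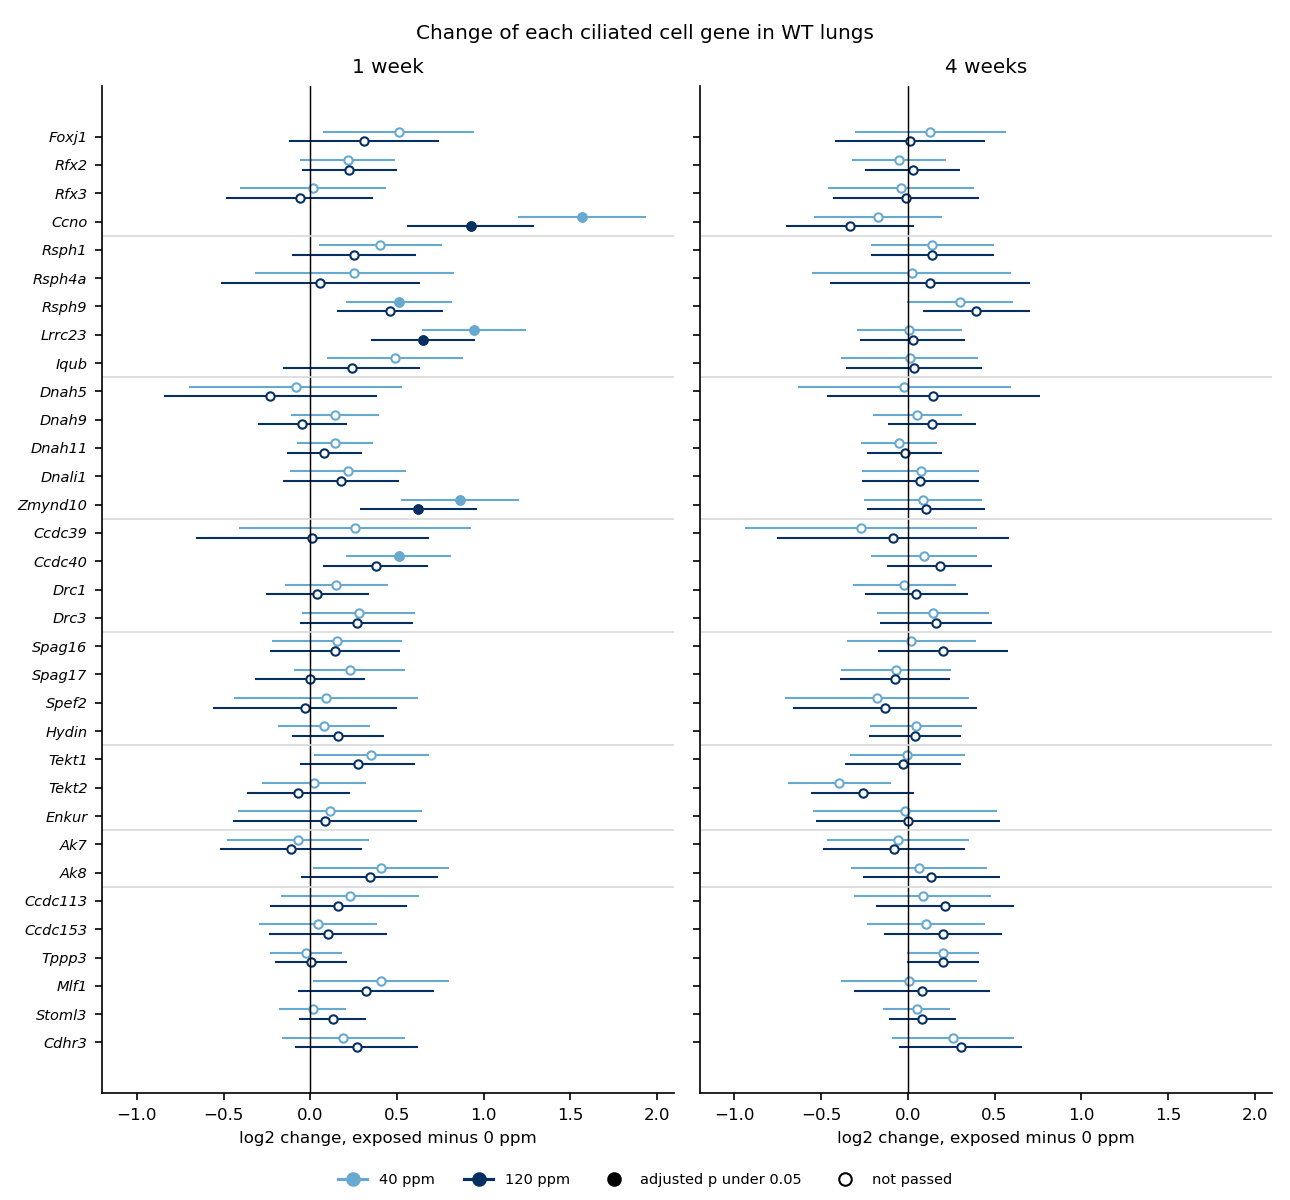
Log2 change with its 95% interval for each of the 33 genes in WT lungs at 40 ppm (light) and 120 ppm (dark), after 1 week (left) and 4 weeks (right). Grey lines part the roles and filled points mark an adjusted p under 0.05. Ccno, Lrrc23 and Zmynd10 stand out at 1 week and lie near 0 or below it at 4 weeks.

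Several of these calls depended on 1 animal or on the fit. At 40 ppm, Rsph9 was lost without WT control animal 2 (limma adjusted p = 0.178) or without animal 2, 3 or 4 at 40 ppm (limma adjusted p = 0.0788, 0.0639 and 0.0921), and Ccdc40 without control animal 2 or 5 (0.180 and 0.0537), without animal 3, 4 or 5 at 40 ppm (0.0758, 0.104 and 0.0674), or with quantile normalization applied again (0.0520). At 120 ppm, a fit of only those 10 arrays left limma adjusted p-values of 0.182 for Ccno, 0.194 for Lrrc23 and 0.201 for Zmynd10.

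The other genes of these processes were described from lists, with the change in WT lungs after 1 week. These lists too were chosen with earlier results of these data known, so their counts are descriptions and not a test. Of 15 measured genes of centriole amplification and its transcription programme that are not among the 33, 6 rose at 40 ppm and 4 at 120 ppm, and none fell. Over all genes, 3.82% rose at 40 ppm and 3.94% at 120 ppm. Deup1, which encodes the scaffold of the deuterosome on which most of these centrioles form, averaged 5.49 ± 0.41 at 0 ppm, 7.29 ± 0.09 at 40 ppm and 6.72 ± 0.45 at 120 ppm (SD, n = 5 each), with all exposed lungs above all controls. Its changes were 1.80 (limma adjusted p = 1.97e-12) and 1.23 (limma adjusted p = 2.94e-07). Stil (1.06 and 1.15) and Plk4 (0.97 and 0.68), which also duplicate centrioles in dividing cells, rose at both doses. Mki67, a marker of dividing cells, rose with them, by 1.32 and 1.49 (limma adjusted p = 0.00985 and 0.00209), and its part in these changes was not tested.

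Further down the programme, 3 of 27 dynein and assembly genes rose at each dose and 1 fell at 120 ppm. Ccdc103, an assembly factor, changed by 0.81 and 0.61. Nme5 was counted in this list and changed by 0.63 and 0.66, and a part of it in dynein assembly was not tested. Of 34 genes of spokes, central pair and cilia-associated proteins, 3 rose at 40 ppm and 2 at 120 ppm, with Cfap52 (0.79 and 0.83) and Ccdc96 (0.70 and 0.57) at both doses. Morn5 (1.25 and 0.98) and Cdhr4 (0.84 and 0.78) rose among 25 other genes known from airway ciliated cells, 4 of which rose at 40 ppm and 2 at 120 ppm. Intraflagellar transport and BBSome genes, which primary cilia use too, gave 3 and 2 rises of 33, with Ift22 at both doses (0.58 and 0.46). Beside these counts, 3.82% of all genes rose at 40 ppm and 3.94% at 120 ppm, and the smaller counts lie near that share. The medians of these 5 lists lay between 0.14 and 0.27 at 40 ppm, against 0.22 for the 33 genes.

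Markers of other cell types in the same WT lungs were read beside these results, and their part in them was not tested. Beside these counts and those of the next paragraph, 4.67% and 6.79% of all genes passed at 40 and 120 ppm, in either direction. Of 10 club cell genes, 2 were dim, with a mean below the lowest array median. Of the 10, Upk3a, known from a club cell subset, rose (1.42 and 0.92) and Cyp2f2 fell by 0.33 and 0.28 on the log2 scale. The mean of that list ran from 10.59 to 10.89 at 0 ppm, from 10.72 to 10.92 at 40 ppm and from 10.59 to 10.98 at 120 ppm. Agr2, of mucous cells, was the 1 of 11 goblet genes to rise (2.81 and 2.39), and 6 of the 11 were dim. Of 8 alveolar type II genes, 1 of them dim, 4 rose at 40 ppm and 2 at 120 ppm, among them Muc1 (0.71 and 0.42).

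Cartilage genes, which would mark more trachea or bronchus in a sample, gave 0 calls of 17 at 40 ppm and 1 fall (Cytl1, by 0.56) at 120 ppm, and 14 of the 17 were dim, with a mean below the lowest array median. The mean of that list ran from 3.67 to 3.76 at 0 ppm, from 3.55 to 3.72 at 40 ppm and from 3.52 to 3.89 at 120 ppm. Of 10 genes of glands, nose and upper airway, 4 were dim and 1 rose, the dim gene Dmbt1 (0.43 and 0.38). The mean of this list ran from 6.16 to 7.50 at 0 ppm, from 6.79 to 7.81 at 40 ppm and from 5.89 to 7.80 at 120 ppm. All 9 spermatid genes, whose axonemes share many parts, were dim. Among them, Smcp rose at 120 ppm (0.23). Basal cell genes gave 0 calls of 7, 6 of them dim, mesothelial genes 0 of 6, and alveolar type I genes 0 of 9 at 40 ppm and 1 fall at 120 ppm. The smooth muscle gene Synpo2 fell by 0.58 and 0.61, as 1 of 7 genes, and Resp18 rose by 0.82 and 0.83, as 1 of 6 neuroendocrine genes of which 5 were dim.

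Whether the rises depend on Cyp2f2 was tested as the difference between strains in the change after 1 week. The changes of the 33 genes in KO lungs lay between -0.30 and 0.29 at 40 ppm and between -0.47 and 0.18 at 120 ppm, and in TG lungs between -0.17 and 0.22 at 40 ppm and between -0.49 and 0.18 at 120 ppm. None passed, where 0% of all genes passed in KO lungs at both doses and in TG lungs at 40 ppm, and 0.0468% in TG lungs at 120 ppm. Ccno read 5.38, 5.69, 5.92, 5.65 and 5.81 in KO lungs at 40 ppm, against 5.25, 5.23, 6.16, 5.21 and 5.15 in KO lungs at 0 ppm. In TG lungs it read 5.42, 5.44, 5.16, 5.36 and 5.69 at 40 ppm, against 5.29, 5.45, 5.52, 5.14 and 5.96 at 0 ppm. Exposed and control lungs overlapped in both strains, and none of these values reached the lowest WT lung at 40 ppm.

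At 120 ppm, the change was lower in KO than in WT lungs for 2 of 33 genes (2.37% of all genes differed, 1.76% in that direction). It was lower in TG than in WT lungs for 4 of 33 genes (4.59% of all genes, 3.42% in that direction). The KO change minus the WT change was -0.98 for Ccno (SE 0.26, limma adjusted p = 0.0255) and -0.78 for Lrrc23 (SE 0.21, limma adjusted p = 0.0304). The TG change minus the WT change was -1.09 for Lrrc23 (limma adjusted p = 0.000494), -1.03 for Ccno (0.0111), -1.02 for Zmynd10 (0.00552) and -0.92 for Rsph9 (0.00537). The TG changes themselves were below 0, at -0.44 for Lrrc23, -0.10 for Ccno, -0.40 for Zmynd10 and -0.46 for Rsph9, and none passed. These TG differences therefore hold a negative TG change as well as a positive WT change. For Rsph9 the WT change was 0.46 and had not passed either. In a fit of only the arrays compared, none of the 33 genes passed in either comparison. The KO count was 0 without KO control animal 3, KO animal 4 at 120 ppm or WT control animal 2, and the TG count was 7 without TG animal 3 at 120 ppm.

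The same differences at 40 ppm were not planned and were added after seeing the data. Ccno, Lrrc23 and Zmynd10 changed less in both strains than in WT lungs, which is 3 of 33 genes in each (1.25% of all genes differed for KO and 1.53% for TG, 1.05% and 1.39% in that direction). Ccno differed by -1.27 in KO (SE 0.26, limma adjusted p = 0.00238) and by -1.62 in TG (SE 0.26, limma adjusted p = 4.07e-05). For Lrrc23 the differences were -0.94 (limma adjusted p = 0.00824) and -1.07 (limma adjusted p = 0.00130). Both genes passed without any single animal and in a fit of only the arrays compared. Zmynd10 differed by -0.89 in KO (limma adjusted p = 0.0388) and by -0.96 in TG (limma adjusted p = 0.0178), and its KO difference was lost in 13 of 20 fits that left out 1 animal, with limma adjusted p up to 0.150 (without KO control animal 3). Its TG difference was lost without TG control animal 5, TG animal 1 or 3 at 40 ppm, or WT control animal 2, with limma adjusted p up to 0.0857.

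**Figure D3:**
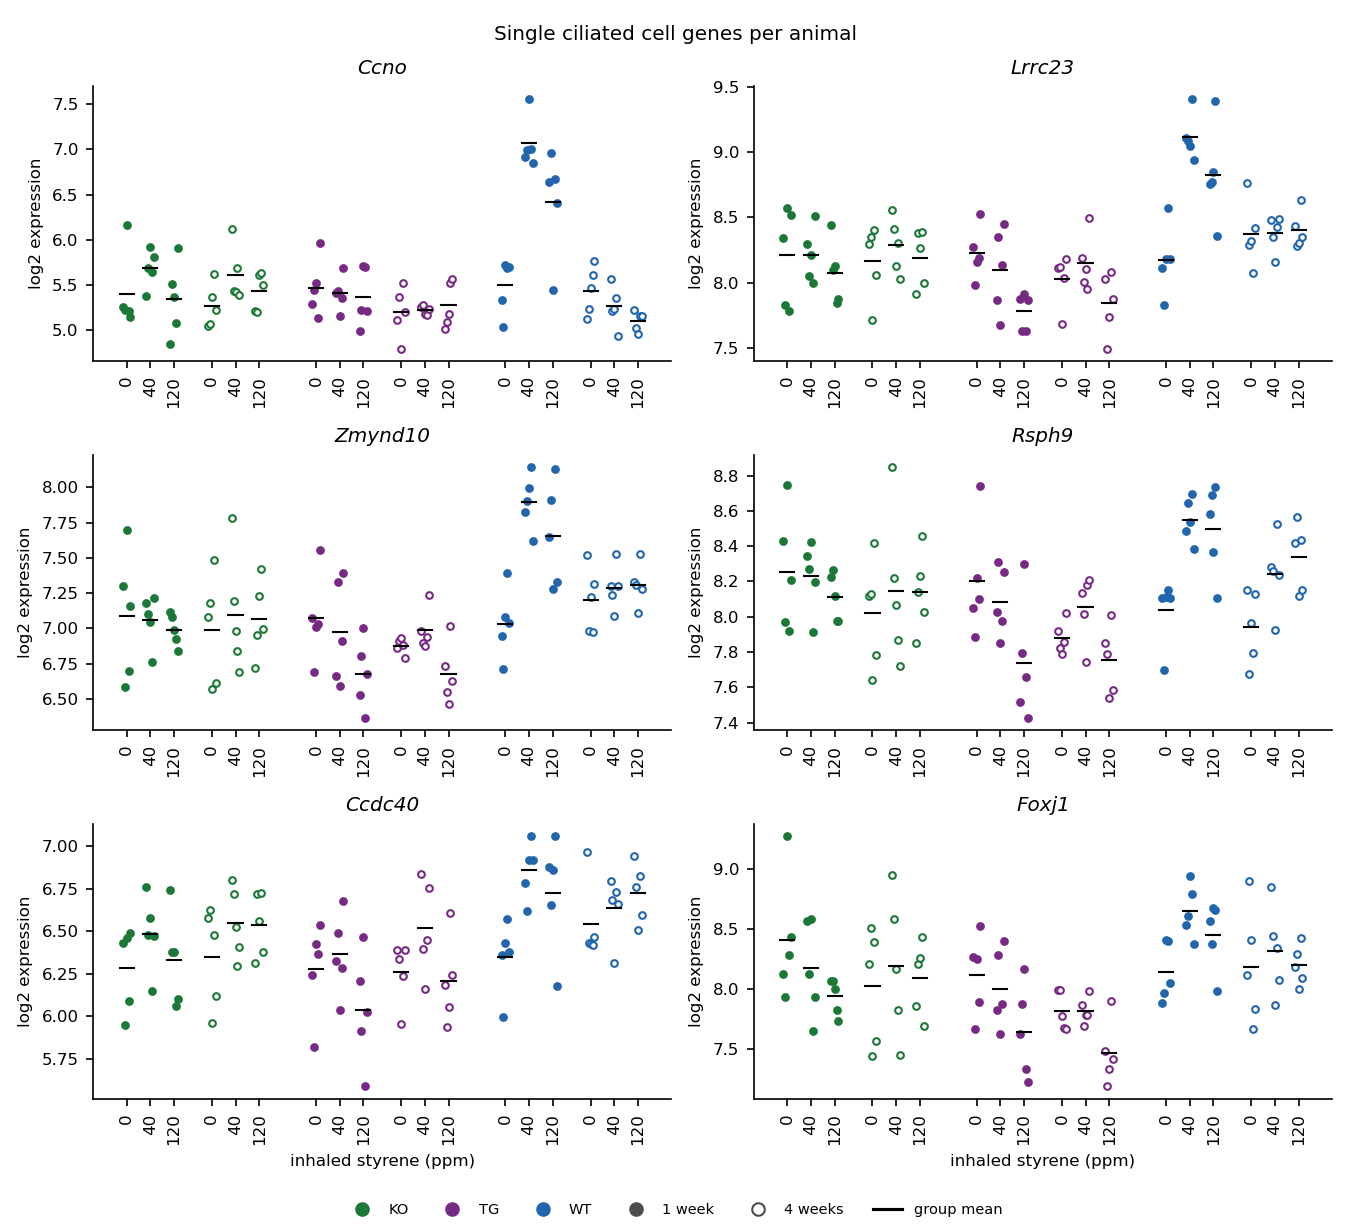
Log2 expression of 6 genes in each of the 90 lungs, by strain (KO green, TG purple, WT blue), week (filled for 1, open for 4) and dose, with a bar at each group mean of 5 animals. Ccno, Lrrc23 and Zmynd10 are high in WT lungs at 40 ppm after 1 week, where all 5 animals lie above the 5 at 0 ppm, while the groups of Foxj1 overlap.

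In TG lungs at 120 ppm, most changes were below 0 at both weeks without passing. After 1 week they were below 0 for 26 of 33 genes (64.2% of all genes), with a median of -0.23 against -0.05 over all genes, and 11 of 33 had an unadjusted p under 0.05 (9.26% of all genes). After 4 weeks they were below 0 for 31 of 33 genes (43.1% of all genes), with a median of -0.13 against 0.02, and 1 of 33 had an unadjusted p under 0.05 (5.61% of all genes). The smallest p-values at 1 week belonged to Drc1, of the nexin-dynein complex (-0.49, limma adjusted p = 0.267), Rsph9 (-0.46, limma adjusted p = 0.347) and Lrrc23 (-0.44, limma adjusted p = 0.359). Lrrc23 read 7.87, 7.62, 7.91, 7.62 and 7.86 in TG lungs at 120 ppm after 1 week, against 8.27, 7.98, 8.16, 8.18 and 8.53 in TG lungs at 0 ppm, with no overlap. Tekt2, a tektin filament gene, was the other gene of the 33 with all exposed lungs below all controls there (2 of 33, against 0.55% of all genes).

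After 4 weeks, 0 of 33 genes passed in WT lungs at 40 ppm (0.152% of all genes) and at 120 ppm (0.439% of all genes). Ccno read 5.12, 5.23, 5.47, 5.61 and 5.76 at 0 ppm, 5.57, 5.22, 5.24, 5.36 and 4.94 at 40 ppm, and 5.23, 5.03, 4.97, 5.16 and 5.15 at 120 ppm. Both exposed groups overlapped the controls, at changes of -0.17 and -0.33. The change at 4 weeks was lower than that at 1 week for 2 of 33 genes at 40 ppm (0.532% of all genes differed, 0.503% in that direction), Ccno by -1.74 (SE 0.26, limma adjusted p = 1.74e-05) and Lrrc23 by -0.94 (limma adjusted p = 0.0116), and for Ccno alone at 120 ppm (0.883% of all genes, 0.749% in that direction), by -1.26 (limma adjusted p = 0.00197). Deup1 differed in the same way, by -1.98 and -1.44. Lrrc23 was lost without WT animal 2 of the 1 week controls (limma adjusted p = 0.0507) or animal 1 of the 4 week controls (limma adjusted p = 0.0521), and Ccno at 120 ppm in a fit of only the arrays compared (limma adjusted p = 0.155).

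The largest other changes at 4 weeks did not pass either. Rsph9 changed by 0.40 at 120 ppm (limma adjusted p = 0.551), with 4 of 5 lungs above all controls. All exposed lungs lay below all controls for Tekt2 at both doses, 1 of 33 genes each (0.871% and 0.965% of all genes), with changes of -0.39 (limma adjusted p = 0.740) and -0.26 (limma adjusted p = 0.917). KO and TG lungs gave 0 calls of 33 in their 4 comparisons at 4 weeks, where 0% of all genes passed at 40 ppm, and 0.0234% (KO) and 0.0117% (TG) at 120 ppm. All TG lungs at 40 ppm lay above all their controls for the outer arm gene Dnah9, 1 of 33 genes (1.2% of all genes). The differences between strains in the 120 ppm change at 4 weeks gave none either (0.0175% of all genes for KO, 0.0292% for TG).

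Without exposure, none of the 33 genes passed between KO and WT (0.275% of all genes), TG and WT (0.287%) or TG and KO lungs (0.135%). Ccno averaged 5.33 ± 0.33 in KO lungs, against 5.47 ± 0.27 in WT lungs (SD, n = 10 each), a difference of -0.14 with a 95% interval from -0.40 to 0.12. Between weeks, 7 of 33 genes were higher in unexposed lungs at 4 weeks than at 1 week and none was lower, at a background of 17.2% of all genes in either direction and 11.3% higher. Each week holds its own animals, so time in the study cannot be told apart from any difference in age or processing date. Ccdc39 (0.81), the central pair gene Spef2 (0.58) and Enkur (0.50) changed most, while the 5 genes that rose with styrene were not among the 7. Ccdc39 did not pass when the median over its probe sets was taken (0.33, limma adjusted p = 0.351), and the count was 4 without TG control animal 5 of week 1.

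The 33 genes moved together from animal to animal within groups, and these correlations are descriptions over 90 lungs that share dissection and array processing. With group means removed, the median Pearson r over 528 pairs of genes was 0.49, from -0.41 to 0.92. Rsph1 followed the mean of the other 32 genes most closely (r = 0.95), then Spag16 (0.91) and Ccdc113 (0.90). Ccno did not follow it (r = -0.07), nor did the dim Stoml3 (-0.06), and Rfx2 (0.19) and Tppp3 (0.24) followed it weakly. Zmynd10 (0.53), Rsph9 (0.43), Lrrc23 (0.80) and Ccdc40 (0.85) lay in between.

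**Figure D4:**
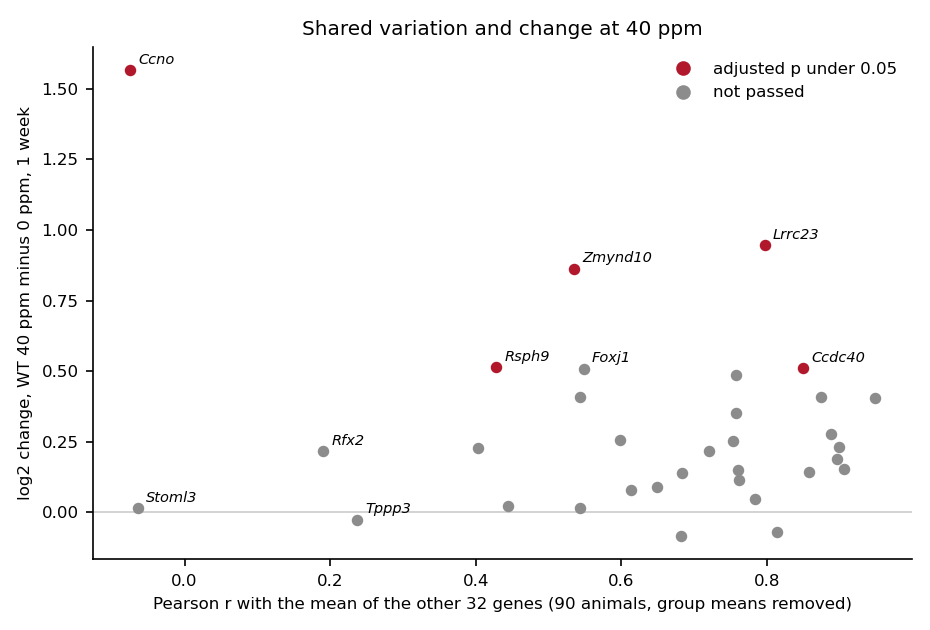
Each point is 1 of the 33 genes, placed by its Pearson r with the mean of the other 32 genes over 90 lungs (group means removed) and by its log2 change in WT lungs at 40 ppm after 1 week. Red points passed at an adjusted p under 0.05. Ccno has the largest change (1.57) and an r of -0.07, and Rsph1 the highest r (0.95) and a change of 0.40.

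The genes outside the 33 that followed their mean most closely were Iqca (r = 0.93), Cetn4 (0.92) and Hoatz (0.92), followed by Cfap206 and Clic6 (0.90 each). None of the 12 closest passed in the 4 comparisons of exposed with unexposed WT lungs. Of all genes, 4.67% (40 ppm) and 6.79% (120 ppm) passed after 1 week, and 0.152% and 0.439% after 4 weeks. A count of 0 in 12 genes lies near those shares. Iqca changed by -0.15 and Cetn4 by 0.46 at 40 ppm after 1 week.

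Per lung, the mean of the 33 genes (each relative to its mean over all 90 lungs) in WT lungs after 1 week was -0.27, -0.18, -0.03, 0.28 and -0.13 at 0 ppm, 0.14, 0.09, 0.21, 0.44 and 0.25 at 40 ppm, and 0.25, -0.09, 0.21, 0.47 and -0.23 at 120 ppm. The highest control lay above 4 of the 5 lungs at 40 ppm, and the lungs at 120 ppm overlapped the controls. Over all doses and weeks the mean ran from -0.39 to 0.37 in the 30 KO lungs (median -0.03), from -0.67 to 0.27 in the 30 TG lungs (median -0.11) and from -0.27 to 0.47 in the 30 WT lungs (median 0.16). The lowest lung of all was animal 4 of the TG lungs at 120 ppm after 1 week.

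**Figure D5:**
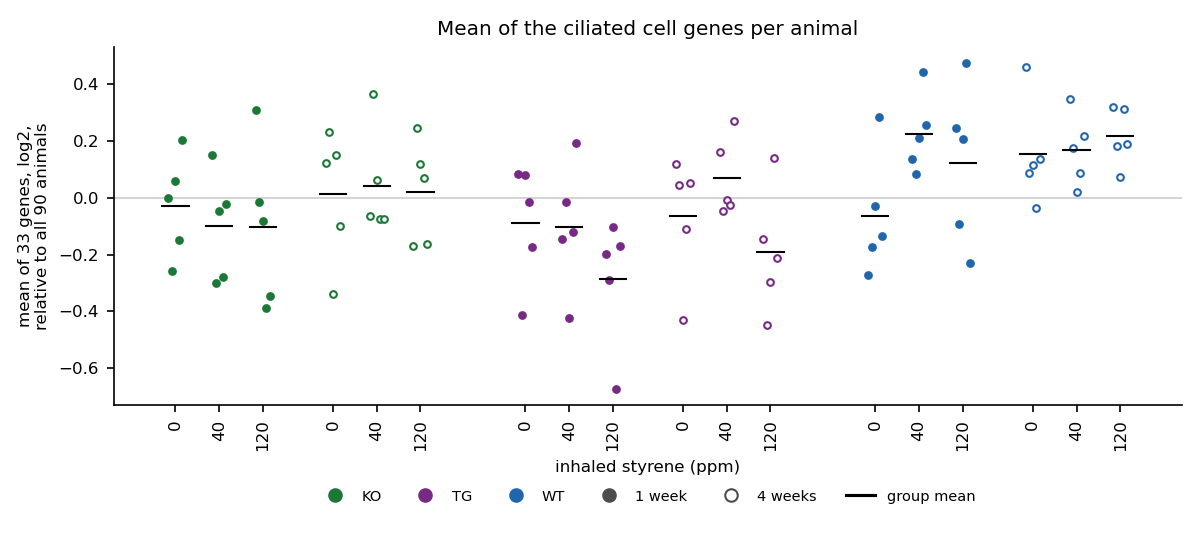
Mean of the 33 genes in each lung, in log2 units relative to all 90 lungs, by strain, week and dose, with a bar at each group mean. The strains overlap, the WT lungs at 40 ppm after 1 week lie between 0.09 and 0.44, and the lowest value (-0.67) is a TG lung at 120 ppm after 1 week.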

How the data were processed

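Total lung RNA was hybridised to Affymetrix HT MG-430 PM arrays. The deposited table holds log2 values for 45141 probe sets on 90 arrays, for which the submitters' processing notes name RMA and Partek (versions not given in the sources used here). These log2 values of the authors were not transformed further. Groups and replicate numbers came from the labels, and no array pair held identical values (highest r = 0.997).

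Each gene was its brightest probe set. A linear model of 18 group means was fitted over 17097 genes with limma 3.58.1 in R 4.3.3 (72 residual degrees of freedom), with empirical Bayes and Benjamini-Hochberg adjustment in each of 24 planned and 2 added comparisons. It was tested on simulated data with 200 changed genes. The labels call the animals biological replicates. The main model did not pair animals by number. Lungs with equal numbers in different groups were slightly more alike than others. The mean correlation of deviations was 0.0557 for equal numbers (765 pairs, 45.0% over 0.1) and -0.0129 for others (3060 pairs, 29.9% over 0.1). A fit with a replicate block is therefore among the alternatives.

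Alternatives were a second quantile normalization, dim genes left out (below the 40th percentile), the median over probe sets, only the arrays compared, array weights, arrays of low weight (under 0.25) left out, a poly-A control covariate, a replicate block, and fits without each animal in turn. The 33 genes and all lists were chosen with earlier results of these data known. Named genes were the members, up to 3 passing genes per list by size, Cyp2f2, Mki67 and the 12 most alike. The number of arrays limits the precision.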

Additional observations from a re-analysis of the deposited data

Results flagged for a closer look

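In 252 groups of 5 animals (13 genes and the mean of the 33 genes, in 18 groups each), 10 values lay apart from their group, with a gap to the nearest lung above 0.71 of the range. Chance flags about 1 in 20 such groups.

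The 4 high values after 1 week or among exposed lungs were those of animal 3 of the unexposed KO group for Ccno (6.16), animal 3 of the WT group at 40 ppm for Ccno (7.56), animal 2 of that group for Tppp3 (11.50) and animal 4 of the KO group at 120 ppm after 4 weeks for Tppp3 (11.88). Animal 1 of the unexposed WT group at 4 weeks lay high for Rsph1 (8.99), Ccdc40 (6.96) and Spag16 (6.53). Low values were those of animal 2 of the unexposed WT group at 1 week for Rsph9 (7.70), animal 3 of the WT group at 40 ppm after 4 weeks for Ccdc40 (6.31) and animal 4 of the TG group at 120 ppm after 1 week for Spag16 (5.05).

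In all, 15 differences between groups in the change passed the limma test. Those between strains at 40 ppm came from the 2 comparisons added after seeing the data. In a fit of only the arrays compared, none of those at 120 ppm passed. Of all genes, 2.37% (KO) and 4.59% (TG) differed from WT at 120 ppm, and 1.25% and 1.53% at 40 ppm. Between weeks, 0.532% of all genes differed at 40 ppm and 0.883% at 120 ppm. The change after 1 week at 120 ppm was lower in KO than in WT lungs for Ccno (-0.98) and Lrrc23 (-0.78), and in TG lungs it was lower than in WT for Ccno (-1.03), Rsph9 (-0.92), Lrrc23 (-1.09) and Zmynd10 (-1.02). At 40 ppm it was lower in KO for Ccno (-1.27), Lrrc23 (-0.94) and Zmynd10 (-0.89), and lower in TG for Ccno (-1.62), Lrrc23 (-1.07) and Zmynd10 (-0.96). Between weeks in WT lungs, the change was lower at 4 weeks for Ccno (-1.74) and Lrrc23 (-0.94) at 40 ppm and for Ccno (-1.26) at 120 ppm.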

How the results depend on the processing

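Counts of the 33 genes that passed kept within 1.5 times of the reported count, in 572 of 598 recomputed counts. Most comparisons had a reported count of 0, which only a newly passing gene could move. The medians over the 33 genes moved by less than the spread between animals in 598 of 598. That spread is as large as the medians, so this count says little about them. The SD was 0.21 in WT controls at 1 week, against a median change of 0.22 at 40 ppm. A fit of only the arrays compared gave 0 genes for WT at 120 ppm after 1 week, 0 for the KO and 0 for the TG difference from WT at 120 ppm after 1 week, and 0 for the difference between weeks at 120 ppm. Such a fit has fewer residual degrees of freedom and takes its spread from those arrays alone. The SD of Ccno in WT lungs after 1 week was 0.58 at 120 ppm and 0.28 at 40 ppm. The part of either in the lost calls was not tested. For the KO difference at 120 ppm, array weights gave 1, leaving out arrays of low weight gave 1, and the poly-A covariate gave 4.

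Leaving out 1 animal, the count ran from 3 to 6 for WT at 40 ppm (3 without control animal 2 or animal 3 or 4 at 40 ppm) and from 2 to 5 for WT at 120 ppm (5 without animal 5 at 120 ppm) after 1 week. It ran from 0 to 3 for the KO and from 3 to 7 for the TG difference at 120 ppm, from 1 to 2 for the difference between weeks at 40 ppm, and from 4 to 8 for unexposed lungs between weeks. Spag16 changed sign between 120 and 40 ppm in WT lungs at 4 weeks with the median over probe sets (-0.000901, from 0.18), and neither value passed. Of the single-gene values, 81 fell below the threshold, 7 passed it newly and 1917 kept their call.

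With a replicate block, 5 genes passed for WT at 40 ppm and 3 at 120 ppm after 1 week, as without it, and no other count of the 33 genes moved.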
